A study of Xenopus laevis with 6 samples.

Results

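The genes described here are those of the fibroblast growth factor (FGF) and mitogen-activated protein (MAP) kinase pathways on an array of Xenopus laevis transcripts. They were chosen by a rule on names, as symbols that begin with fgf, mapk, map2k, map3k, map4k, dusp, spry or spred followed by a digit or letter. This gave 73 of 11303 symbols, and each symbol was read through its probe set with the highest mean signal. Earlier results of these data were known when the genes were chosen. Symbols ending in .L and .S are the copies of a gene on the long and short subgenomes of this frog and were counted apart. The 73 symbols give 60 names once .L and .S are removed, with 40 .L symbols, 30 .S symbols and 3 symbols without a copy name. Among these names fgfr1-a, which had no RefSeq match, is counted apart from fgfr1. Counts out of the 73 genes or by role are counts of symbols. In all, 5 symbols fit the rule through their letters only: fgfr1op2.S, mapkap1.L (a subunit of the mTORC2 complex) and the SPRY-domain genes spryd3.L, spryd4.S and spryd7.S, which are not Sprouty genes.

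The RNA came from animal caps, the ectoderm at the top of the blastula. When embryos had 4 cells, each blastomere was injected with ERK3 MO1/2 (40 ng of each of a pair of morpholinos), ERK3 MO3 (80 ng) or control MO (80 ng). Stage 9 embryos gave the caps, which grew with activin and retinoic acid (activin/RA) or alone (untreated) until stage 15. This makes 6 groups with 1 array each, from 1 experiment: activin/RA with MO1/2, with MO3 and with control MO, and untreated with MO1/2, with MO3 and with control MO. Morpholinos are antisense oligonucleotides that block translation or splicing, so injected embryos keep their genes and may keep some of the protein. ERK3 is the atypical MAP kinase encoded by mapk6. No probe set with 1 symbol carried the name mapk6, so the targeted transcript was not analysed here.

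FGF ligands bind receptor tyrosine kinases at the cell surface, and the signal passes through Ras and a chain of kinases, from MAP3K to MAP2K to MAP kinase. Parallel chains end in the ERK, JNK and p38 kinases. ERK signalling raises its own inhibitors, among them the Sprouty and Spred proteins and the dual-specificity phosphatases dusp5 and dusp6, so transcripts of these inhibitors are widely used as readouts of the pathway. In frog embryos FGF signalling works with activin-like ligands in forming and keeping mesoderm.

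Values are log2 RMA intensities, and changes are differences of these on the log2 scale. The median over all probe sets and arrays was 5.10, and array medians lay between 5.08 and 5.14. Of the 73 genes, 41 lay above the overall median on every array, 48 on at least 1 array, and 25 on none. RMA gives no detection call, and weak signals compress changes. All 7 MAP2K members and 5 of 7 MAP kinases exceeded the overall median on every array, whereas 2 of 12 FGF ligands exceeded it on any. Calls are limma tests with Benjamini-Hochberg adjustment over all 32539 probe sets, at an adjusted p under 0.05. Each p-value reflects no more than how much the 6 arrays vary, a spread that may be technical, and their number limits the precision.

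Markers of other tissues moved with the same comparisons, and their part in the results below was not tested. The summed intensity of 12 mesoderm symbols was 1156.5 to 1863 in activin/RA caps and 108 to 131 in untreated caps, and that of 10 endoderm symbols was 1750 to 2262 in activin/RA caps and 121 to 129 in untreated caps. Activin/RA raised 11 of the mesoderm and 10 of the endoderm symbols. It also raised 5 of 16 epidermal symbols and lowered 1. Of 16 epidermal symbols 9 fell with the ERK3 morpholinos in untreated caps, where their sum was 9996 with MO1/2, 11903 with MO3 and 18542 with control MO, and 1 fell in activin/RA caps (11084, 11304 and 17533). Of 10 symbols of stored egg transcripts 6 rose in untreated caps and 0 fell, with sums of 2026 with MO1/2, 1899 with MO3 and 785 with control MO. With activin/RA 6 of these 10 fell and 1 rose, with sums of 634 to 914 in activin/RA caps and 785 to 2026 in untreated caps. Of 11 neural symbols 1 fell with activin/RA and 0 rose. They summed to between 4717 and 5487 in activin/RA caps and between 5535 and 6522 in untreated caps. In RNA from whole caps, fewer cells of a type and less RNA per cell cannot be told apart.

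Activin/RA raised 3 of 12 FGF ligand genes, 1 of 9 receptor genes, 3 of 4 Sprouty and Spred genes and 3 of 6 MAP kinase phosphatase genes. These counts take the .L and .S copies of a gene apart. The ligands were fgf20.L, fgf8.L and fgf3.L, the receptor was fgfr2.L, and the others were both copies of spry2, spred1.L, dusp5.S and both copies of dusp6. The other gene that rose was map2k7.L. Genes that fell were mapkbp1.L, both copies of map2k4, dusp18.L, dusp1.L, mapk11.L and dusp11.L. The question was how the pathway's transcripts differ between the cultures, with the morpholino as a block, so each estimate is the mean of 3 pairs of arrays. In total 11 of 73 genes rose (15.1%) and 7 fell (9.59%). Over all symbols 9.71% rose and 14.6% fell, and over all probe sets 9.6% rose and 10.9% fell. The median change was -0.09 for the 73 genes and -0.05 for all symbols, and the median size of a change was 0.26 and 0.24. By these calls the share that rose lay above the background and the share that fell below it, and no test was made of the list as a whole. By level alone, 23.3% of the 73 genes had every activin/RA array below every untreated array, against 19.4% of all symbols. Where the decreases stand beside the background thus depends on the measure.

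**Figure D1:**
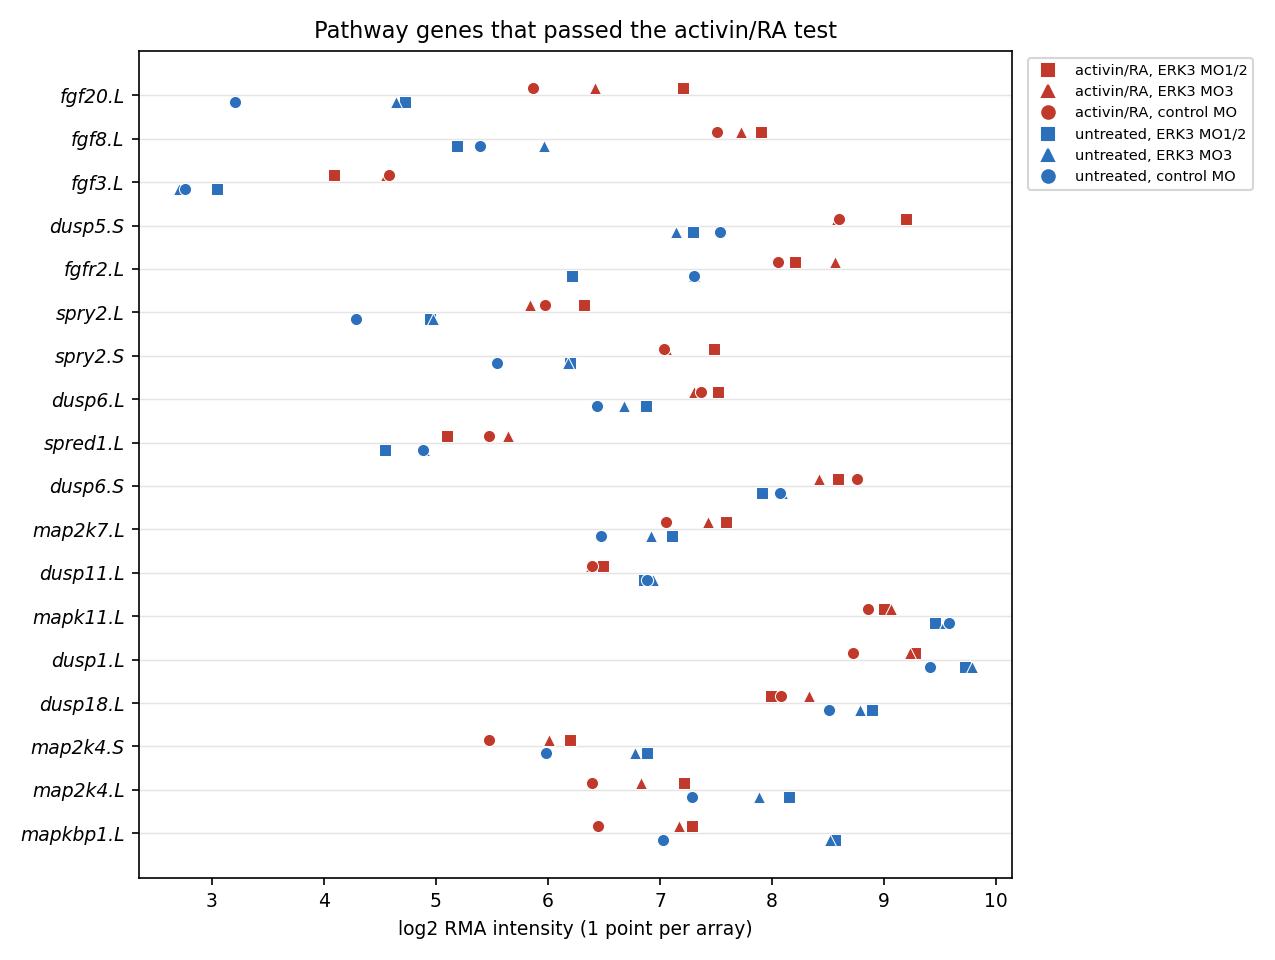
Log2 RMA intensity on each of the 6 arrays for the 18 pathway genes that passed the activin/RA test, in order of their change, with red symbols for activin/RA, blue for untreated and the shape giving the morpholino. For fgf8.L the activin/RA arrays lie at 7.51 to 7.90 and the untreated arrays at 5.19 to 5.97, whereas the cultures overlap for map2k7.L, map2k4.S and mapkbp1.L.

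Among the ligands, fgf20.L, a secreted factor of the same subfamily as fgf9, had the largest change. It read 7.21 with MO1/2, 6.42 with MO3 and 5.87 with control MO in activin/RA caps, against 4.72, 4.64 and 3.21 in untreated caps. The cultures did not overlap, and in each of them the control MO array was the lowest. The change was 2.31 ± 0.20 (SE of the fit, limma adjusted p = 0.000627), a 4.95-fold difference, and it was higher in all 3 pairs. With 16 added to each intensity before log2 the change was 1.61, and the gene still passed.

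The mesoderm and tailbud ligand gene fgf8.L read 7.90, 7.72 and 7.51 in activin/RA caps with MO1/2, MO3 and control MO, against 5.19, 5.97 and 5.39 in untreated caps. These groups were apart by more than the range within either, and the means were 7.71 ± 0.19 and 5.52 ± 0.40 (SD, n = 3 each). The change was 2.20 ± 0.19 (SE, limma adjusted p = 0.000627). Of its 4 probe sets 3 passed upwards, with changes of 2.20, 2.17 and 2.56, while the other read 2.13 to 2.56 on all arrays, with a value of 0.19 that did not pass.

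The ligand gene fgf3.L lay at 4.10, 4.56 and 4.58 in activin/RA caps and at 3.05, 2.71 and 2.76 in untreated caps, in the same order of morpholinos. All 6 signals were below the overall median, and the cultures did not overlap. Its change was 1.57 ± 0.20 (SE, limma adjusted p = 0.00271). Adding 16 to each intensity before taking log2 gave 0.69 instead, and the gene still passed. The other 9 ligand genes did not pass, and their changes ran from -0.40 for fgf9.S to 0.23 for fgf2. These include fgf12.S and fgf13.L, whose products stay inside the cell, and both copies of the mesoderm ligand gene fgf4, at 2.35 to 2.91 on every array. The carrier protein genes fgfbp1.S and fgfbp2.L, whose products bind FGF outside the cell, read 1.98 to 2.66 on all arrays and did not pass.

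Of 9 receptor genes fgfr2.L passed, while 9.71% of all symbols rose, and a count this small cannot be set apart from that share. fgfr2.L read 8.21 with MO1/2, 8.56 with MO3 and 8.05 with control MO in activin/RA caps. In untreated caps it read 6.22, 7.31 and 7.31. The activin/RA arrays were all higher, and the change was 1.33 ± 0.22 (SE, limma adjusted p = 0.00779). A second probe set of this gene passed as well, with 1.47. fgfr1.L read 7.61, 7.35 and 7.97 in activin/RA caps and 7.12, 7.42 and 6.62 in untreated caps, so the cultures overlapped, and it did not pass (0.59 ± 0.25 SE, limma adjusted p = 0.139). Its pairs differed by 0.48 with MO1/2, -0.07 with MO3 and 1.35 with control MO. The remaining receptor genes had changes between -0.20 and 0.09. They were fgfr1-a, the copies of fgfr3, fgfr4 and fgfrl1, of which fgfrl1 encodes a receptor without a kinase domain.

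**Figure D2:**
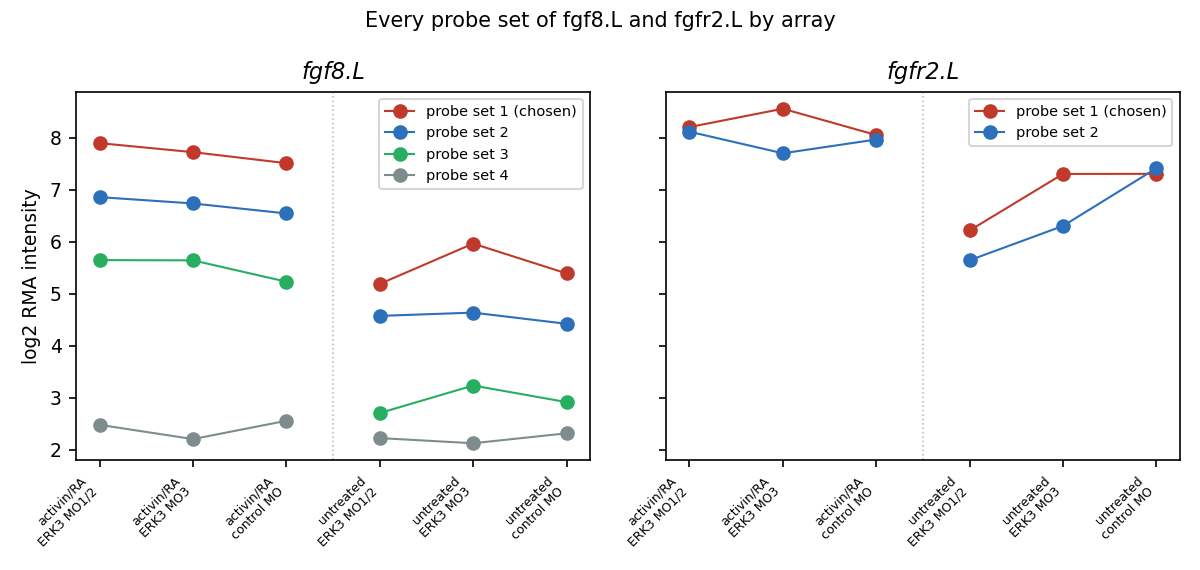
Log2 RMA intensity of every probe set of fgf8.L (left) and fgfr2.L (right), with activin/RA arrays before untreated arrays on the horizontal axis and lines joining the arrays of a culture for 1 probe set. Of the fgf8.L probe sets 3 are higher in activin/RA caps, and the fourth stays between 2.13 and 2.56. In untreated caps the chosen fgfr2.L probe set reads 7.31 with MO3 and 7.31 with control MO, while the second reads 6.31 with MO3 and 7.41 with control MO.

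Sprouty proteins inhibit receptor tyrosine kinase signalling to ERK, and both copies of spry2 rose. spry2.L read 6.33, 5.84 and 5.98 in activin/RA caps with MO1/2, MO3 and control MO, against 4.94, 4.97 and 4.28 in untreated caps (change 1.31 ± 0.19 SE, limma adjusted p = 0.00499). spry2.S read 7.48, 7.05 and 7.03 against 6.19, 6.18 and 5.55 (1.21 ± 0.16 SE, limma adjusted p = 0.00334). In both copies no activin/RA array fell into the untreated range. spred1.L, of the related Spred family, read 5.10, 5.64 and 5.48 in activin/RA caps and 4.55, 4.90 and 4.89 in untreated caps, a change of 0.63 ± 0.15 (SE, limma adjusted p = 0.028). spry1.S did not pass, at 5.97, 5.75 and 5.81 in activin/RA caps and 5.93, 5.71 and 4.51 in untreated caps. Only its untreated control MO array stood apart from the rest.

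Of the 6 symbols of MAP kinase phosphatases 3 rose and 1 fell, while 9.71% of all symbols rose and 14.6% fell. dusp5.S, which encodes a nuclear phosphatase of ERK, read 9.19, 8.58 and 8.60 in activin/RA caps with MO1/2, MO3 and control MO, against 7.30, 7.14 and 7.54 in untreated caps. Its change was 1.46 ± 0.17 (SE, limma adjusted p = 0.00182), with no overlap between cultures. The cytoplasmic ERK phosphatase gene dusp6 rose in both copies, by less. dusp6.L had means of 7.40 ± 0.11 in activin/RA caps and 6.66 ± 0.22 in untreated caps, and dusp6.S had 8.58 ± 0.17 and 8.02 ± 0.10 (SD, n = 3 each). The changes were 0.73 ± 0.13 and 0.56 ± 0.12 (SE, limma adjusted p = 0.0109 and 0.0197).

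dusp1.L, whose product acts mainly on p38 and JNK, moved the other way. It read 9.27, 9.23 and 8.73 in activin/RA caps and 9.72, 9.79 and 9.41 in untreated caps, in the order MO1/2, MO3 and control MO. It fell by 0.56 ± 0.10 (SE, limma adjusted p = 0.00972), and its second probe set passed too. By their names both probe sets share a target sequence, so the second is not a separate check. dusp1.S stood at -0.45 without passing, and dusp4.S, a nuclear phosphatase of ERK and JNK, at 0.24. Among the 10 other dual-specificity phosphatase genes, dusp18.L fell by 0.59 and dusp11.L, whose product acts on RNA, fell by 0.47 (limma adjusted p = 0.0202 and 0.0449). None of these 10 rose, and their changes ran from -0.59 to 0.20.

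In the kinase chains 1 of 7 MAP2K genes rose and 2 fell, 1 of 7 MAP kinase genes fell, and 0 of 6 MAP3K genes passed. Over all symbols 9.71% rose and 14.6% fell, and counts this small cannot be set apart from those shares. The JNK-activating kinase gene map2k4 fell in both copies. map2k4.L read 7.22 with MO1/2, 6.83 with MO3 and 6.39 with control MO in activin/RA caps, against 8.15, 7.88 and 7.29 in untreated caps (change -0.96 ± 0.12 SE, limma adjusted p = 0.00278). map2k4.S read 6.20, 6.01 and 5.48 against 6.88, 6.78 and 5.98, a change of -0.65 ± 0.14 (SE, limma adjusted p = 0.0189). In each culture and each copy, both ERK3 morpholino arrays lay above the control MO array. map2k7, the other activator of JNK, was higher in activin/RA caps, with 7.59, 7.43 and 7.06 for map2k7.L against 7.11, 6.92 and 6.47 (0.53 ± 0.12 SE, limma adjusted p = 0.025). Each of its pairs was higher, although the cultures overlap, and its second probe set stood at 0.38 without passing.

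mapkbp1.L, which encodes a JNK-binding protein, had the largest decrease of the pathway genes. It read 7.28, 7.17 and 6.45 in activin/RA caps and 8.56, 8.52 and 7.03 in untreated caps, a change of -1.07 ± 0.17 (SE, limma adjusted p = 0.00711). The pair with control MO differed by -0.58 and those with MO1/2 and MO3 by -1.28 and -1.35. Of the MAP kinases, the p38 gene mapk11.L fell by 0.55 ± 0.10 (SE, limma adjusted p = 0.0123), at 8.85 to 9.06 in activin/RA caps and 9.45 to 9.58 in untreated caps. Its .S copy stood at -0.27 and the p38 gene mapk14.S at -0.35, neither passing. mapk15.L, an atypical MAP kinase gene, read 3.94 to 4.13 in activin/RA caps and 4.31 to 4.48 in untreated caps (-0.34, limma adjusted p = 0.183). The JNK gene mapk8 stood at -0.06 and 0.17 in its copies, and map2k1.L, which encodes an activator of ERK, at -0.09, none passing. No MAP3K or MAP4K gene passed, with values between -0.49 for map3k7.S (encoding TAK1) and 0.18 for map3k9.L. None of the 5 genes that fit the rule through their letters passed here, at values between -0.34 and 0.16.

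**Figure D3:**
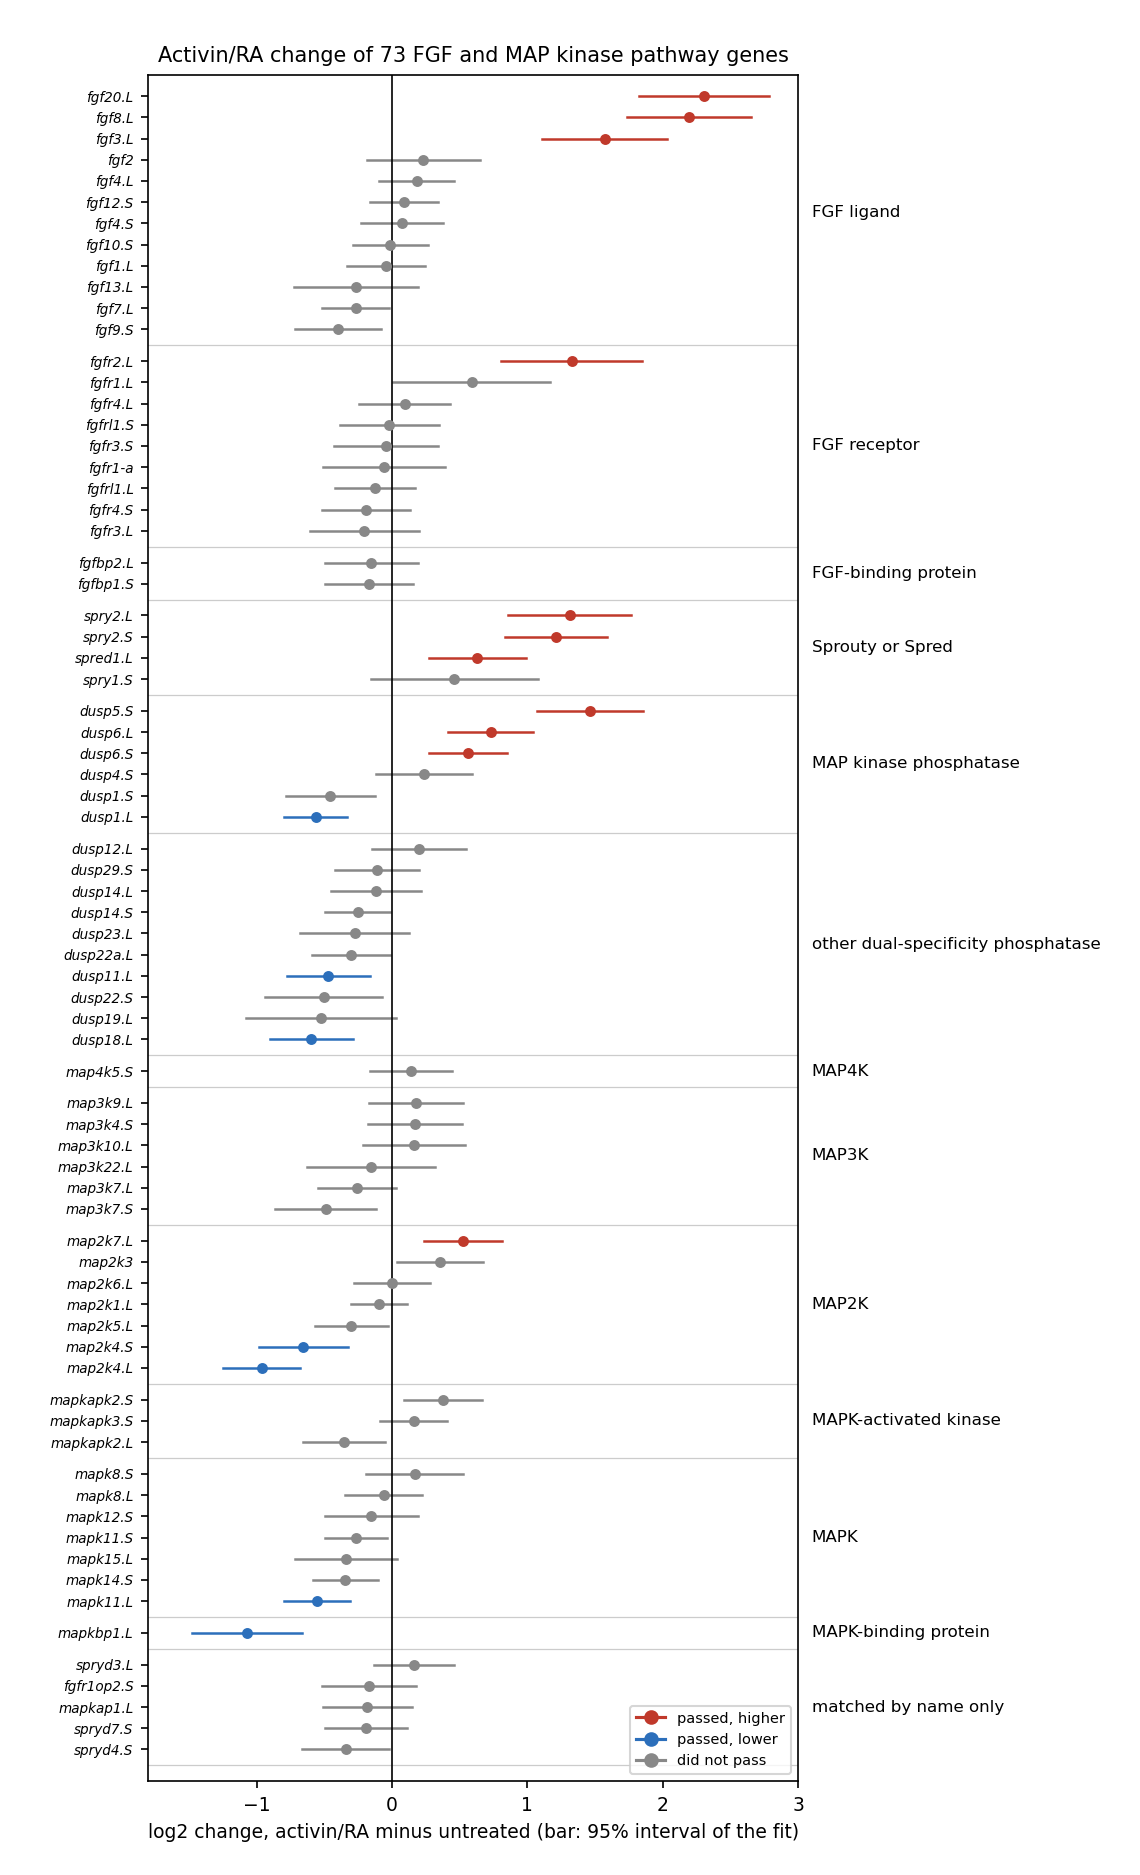
Log2 change, activin/RA minus untreated, of all 73 genes grouped by role, with bars for the 95% interval of the limma fit. Red genes passed upwards and lie among the ligands, receptors, Sprouty and Spred genes, MAP kinase phosphatases and MAP2K genes. Blue genes passed downwards, and the intervals of most other genes include 0.

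The number of genes that passed depended on the arrays. Counts of all symbols under the same settings are not set beside these, so the shifts are not shown to be particular to the pathway genes. Leaving out the untreated MO1/2 array left 8, leaving out the untreated MO3, activin/RA MO1/2 or activin/RA MO3 array left 9 each, and leaving out either control MO array gave 25, with 11 higher and 14 lower. With the morpholino as a block, an array whose partner is left out adds nothing to a gene's estimate. Leaving out either array of a pair therefore gives the same changes, and such settings are not separate checks. Without a control MO array 7 genes were added, all with lower estimates in activin/RA caps: mapk14.S, fgf13.L, spryd4.S, map3k7.S, dusp19.L, mapkapk2.L and dusp22.S. These estimates rest on the pairs with MO1/2 and MO3 alone. In the control MO pair fgf13.L (0.37) and dusp19.L (0.07) were higher in activin/RA caps, and the rest were lower. fgf13.L read only 1.77 to 2.75 on all arrays. Without the morpholino block 10 passed, 9 higher and 1 lower. The 6 genes fgf20.L, fgf8.L, fgf3.L, fgfr2.L, dusp5.S and spry2.S passed under each of the 12 alternatives, except that fgf3.L was not tested in 1 of them. By level alone, all 3 activin/RA arrays exceeded all 3 untreated arrays for 12 genes (16.4%, against 14.3% of all symbols) and lay below them for 17 (23.3%, against 19.4%).

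Genes that act with these pathways but have other names were read from a list of 48 symbols. The list was chosen with earlier results of these data known, so its shares beside the background are no test. With activin/RA 9 rose (18.8%, against 9.71% of all symbols) and 3 fell (6.25%, against 14.6%), with a median change of 0.06. The leading increases were those of cdx4.L (5.16 ± 0.28 SE), a homeobox target of FGF signalling, of flrt3.L (4.60 ± 0.23 SE) and flrt3.S (3.67 ± 0.24 SE), which encode a membrane protein that binds FGF receptors, and of the brachyury gene tbxt.S (4.07 ± 0.24 SE). The Ets factor genes etv1.S (0.83), etv4.L (0.76) and ets2.L (0.76) rose as well (limma adjusted p = 0.00485, 0.0126 and 0.00386), while elk3.L (0.32), ets2.S (-0.33), elk4.L (-0.42) and elk4.S (-0.08) did not pass. The 3 that fell were the Ras-related gene mras.L (-1.53) and the genes of the ERK and p38 substrates mknk1.S (-0.86) and mknk2.S (-0.76). The other copy mknk2.L stood at 0.20 without passing. cdx4 and tbxt also mark mesoderm.

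In untreated caps the ERK3 morpholinos raised 4 of the 73 genes and lowered 1. The genes that rose were dusp19.L, mapkbp1.L, fgf20.L and spry1.S, and the receptor gene fgfr4.S fell. The comparison asked which transcripts differ with the ERK3 morpholinos in caps grown alone. It treats the 2 ERK3 reagents as replicates and takes the spread of the single control MO array in a culture to be that of the rest. Every value rests on 1 untreated control MO array, without which no estimate can be made. Of the 73 genes 5.48% rose and 1.37% fell, against 4.08% and 3.8% of all symbols and 3.14% and 3.56% of all probe sets. The median change was 0.09 for the 73 genes and 0.04 for all symbols.

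The largest increase was that of dusp19.L, an atypical phosphatase gene whose mammalian product acts in the JNK pathway. It read 4.81 with MO1/2 and 4.59 with MO3, against 3.12 with control MO (change 1.58 ± 0.35 SE, limma adjusted p = 0.0433). All its signals were below the overall median, and with 16 added before log2 the change was 0.76 with the call kept. The call was lost in 3 of the 9 alternatives that tested this gene. mapkbp1.L read 8.56 and 8.52 with the ERK3 reagents and 7.03 with control MO. This change of 1.52 ± 0.17 (SE, limma adjusted p = 0.0155) was a 2.86-fold difference in a bright signal. It was the only call of the 5 that passed under all 10 alternatives. Those that leave out an activin/RA array keep the same estimate and are not separate checks. None leaves out the untreated control MO array.

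fgf20.L read 4.72 with MO1/2 and 4.64 with MO3 in untreated caps, against 3.21 with control MO (1.48 ± 0.32 SE, limma adjusted p = 0.0427). With 16 added before log2 the change was 0.72 and no longer passed. spry1.S read 5.93 and 5.71 against 4.51 (1.30 ± 0.22 SE, limma adjusted p = 0.0249), and its second probe set read 4.79 and 4.59 against 3.25. The copies of spry2 stood at 0.68 and 0.64 without passing (limma adjusted p = 0.16 and 0.144). Both reagents lay above the control MO array in each copy.

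Among the receptors, fgfr4.S fell. It read 8.54 with MO1/2, 8.84 with MO3 and 9.70 with control MO, a change of -1.01 ± 0.18 (SE, limma adjusted p = 0.0268). fgfr4.L read 7.12 and 7.35 against 8.01 (-0.78, limma adjusted p = 0.0573), just outside the threshold. The other receptor genes did not pass. fgfr1.L stood at 0.65, fgfr1-a at 0.68, fgfr3.L at 0.69 and fgfr3.S at 0.32, each higher with both reagents.

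For the chosen probe set of fgfr2.L the reagents disagreed. It read 6.22 with MO1/2 and 7.31 with MO3, against 7.31 with control MO, a change of -0.55 that did not pass. The gene's second probe set read 5.64 and 6.31 against 7.41, lower with both reagents, and passed, with -1.44 (limma adjusted p = 0.0387). Without the untreated MO3 array the chosen probe set passed as well, at -1.09 (limma adjusted p = 0.0447).

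The ligand genes fgf8.L (0.19) and fgf3.L (0.12) and the ERK phosphatase genes dusp5.S (-0.32), dusp6.L (0.34) and dusp6.S (-0.07) did not pass in untreated caps. The copies of map2k4 stood at 0.73 and 0.85 with limma adjusted p of 0.104 and 0.0529. Their signals were 8.15 and 7.88 against 7.29 for map2k4.L and 6.88 and 6.78 against 5.98 for map2k4.S. mapk15.L read 4.31 and 4.33 against 4.48 (-0.16, limma adjusted p = 0.714). The second probe set of map2k7.L passed, at 7.06 and 7.07 against 6.07 (0.99, limma adjusted p = 0.0279), while the chosen one stood at 0.54. Without the untreated MO1/2 array 1 of the 73 genes passed, mapkbp1.L. Of the 48 other pathway symbols 2 rose, rps6ka3.L (1.10) and myc.L (0.85), and 2 fell, the AP-1 gene junb.L (-1.42) and mknk2.L (-1.28). This is 4.17% in each direction, against 4.08% and 3.8% of all symbols. The other copy mknk2.S stood at 0.08 without passing. Without a test, 4 of the 73 genes were at least 2-fold higher with both reagents and 0 were 2-fold lower, against 2.59% and 2.5% of all symbols. These 4 are the genes that rose.

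**Figure D4:**
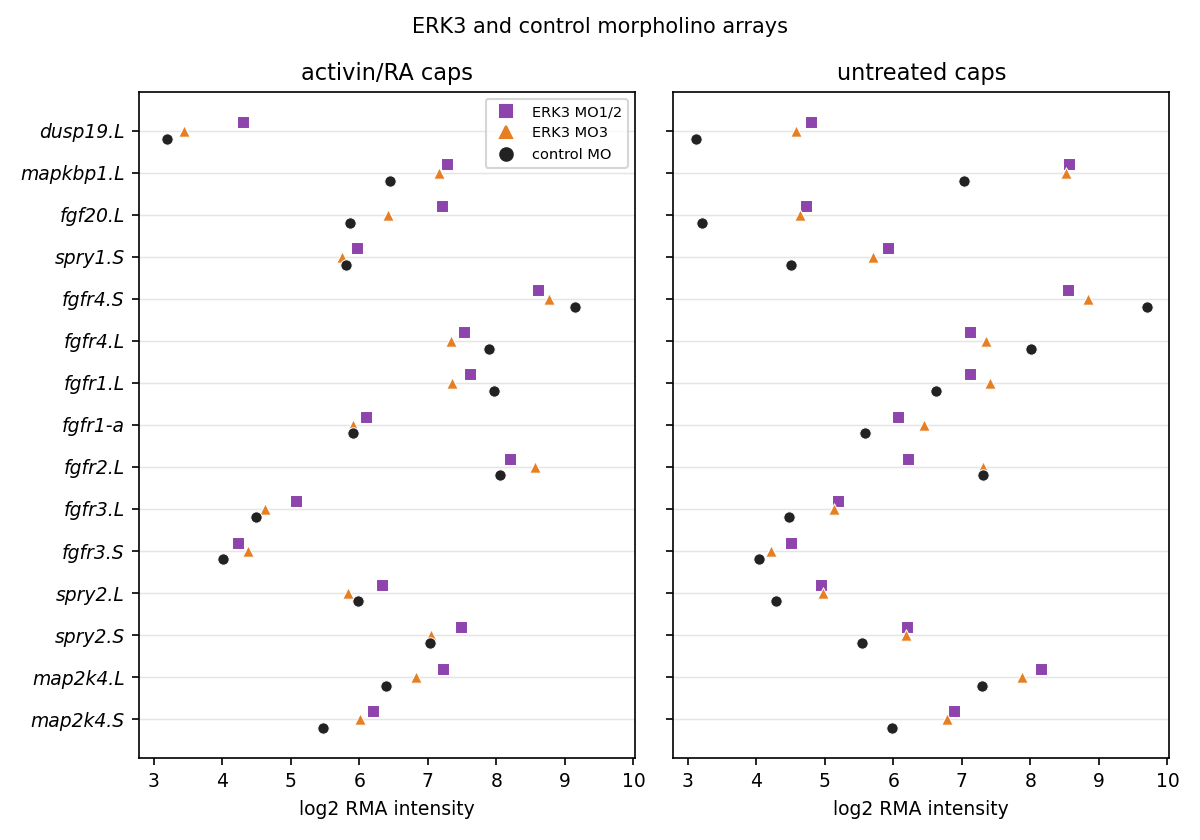
Log2 RMA intensity with ERK3 MO1/2 (purple squares), ERK3 MO3 (orange triangles) and control MO (black circles) in activin/RA caps (left) and untreated caps (right), set slightly apart in height, for the 5 genes that passed in untreated caps, further receptor genes and the copies of spry2 and map2k4. For spry1.S all 3 arrays lie between 5.75 and 5.97 in activin/RA caps, while the ERK3 arrays lie at 5.93 and 5.71 against 4.51 in untreated caps.

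In activin/RA caps 0 of the 73 genes passed for the ERK3 morpholinos in limma, and 13 had an unadjusted p under 0.05 (17.8%, against 11.7% of all symbols), with a smallest adjusted p of 0.199. Among all symbols 0.0265% rose and 0.124% fell, and among all probe sets 0.0123% and 0.126%. The largest changes among the 73 genes were 0.94 for fgf20.L and -0.73 for dusp12.L. fgf20.L read 7.21 with MO1/2 and 6.42 with MO3 against 5.87 with control MO, and its interval ran from 0.19 to 1.70. mapkbp1.L read 7.28 and 7.17 against 6.45, a change of 0.78 with an interval of 0.37 to 1.18. Its arrays were thus in the same order as in untreated caps.

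spry1.S read 5.97 and 5.75 with the ERK3 reagents and 5.81 with control MO in activin/RA caps, a change of 0.05 (95% interval -0.48 to 0.57). dusp19.L read 4.31 with MO1/2 and 3.44 with MO3, against 3.19 (0.68), so the MO1/2 array lay farther from control MO than the MO3 array. fgfr4.S read 8.60 and 8.77 against 9.15 (-0.46), and fgfr4.L 7.53 and 7.34 against 7.90 (-0.47). In both copies the ERK3 arrays lay below the control MO array, as in untreated caps, and neither passed.

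Of the 48 other pathway symbols 0 passed in activin/RA caps, and 11 had an unadjusted limma p under 0.05 (22.9%, against 11.7% of all symbols). The immediate early gene jun.L read 6.87 and 6.99 against 5.52 (1.41, limma adjusted p = 0.159) and fos.S read 8.56 and 8.33 against 7.22 (1.23, limma adjusted p = 0.152). In untreated caps these genes had their highest signal with control MO, with 6.98 and 6.29 against 7.15 for jun.L and 8.96 and 8.40 against 9.48 for fos.S. The interaction did not pass for either (limma adjusted p = 0.318 and 0.286), nor for junb.L (2.17, limma adjusted p = 0.229). The FGF target genes cdx4.L (-1.38) and tbxt.L (-1.26) had lower values without passing, while tbxt.S stood at 0.12. Of the 73 genes 0 were 2-fold higher and 0 were 2-fold lower with both reagents in these caps, against 0.203% and 1.02% of all symbols.

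The difference of the ERK3 effect between cultures was tested as an interaction, and 0 of the 73 genes passed in limma (0.0% of all probe sets and of all symbols). Of the 73 genes 6 had an unadjusted limma p under 0.05 (8.22%, against 9.45% of all symbols). The largest was spry1.S, whose effect was 1.26 lower in activin/RA caps than in untreated caps (-1.26 ± 0.32 SE, limma adjusted p = 0.35). For fgfr1.L the difference was -1.14 ± 0.30 (SE, limma adjusted p = 0.354): the ERK3 arrays lay at 7.61 and 7.35 against 7.97 in activin/RA caps, and at 7.12 and 7.42 against 6.62 in untreated caps. For mapkbp1.L it was -0.74 and for fgf20.L -0.53, neither passing. The ERK3 effects in the cultures are therefore not shown to differ for any of these genes.

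The ERK3 reagents were set against each other over both cultures, and 0 of the 73 genes passed in limma (0.0% of all probe sets and of all symbols). The smallest limma adjusted p was 0.659, and 5 genes had an unadjusted p under 0.05 (6.85%, against 7.26% of all symbols). MO3 minus MO1/2 was 0.72 ± 0.27 (SE) for fgfr2.L and 0.71 ± 0.19 (SE) for dusp4.S. The dusp4.S signals were 5.31 with MO3 and 4.56 with MO1/2 in activin/RA caps, and 5.03 and 4.35 in untreated caps. Both genes passed when either control MO array was left out (without the untreated one, limma adjusted p = 0.0197 for fgfr2.L and 0.0454 for dusp4.S). No control MO array enters these differences, so they stayed the same in both settings, which are not separate checks. The second probe set of fgfr2.L read 7.70 with MO3 and 8.12 with MO1/2 in activin/RA caps, and 6.31 and 5.64 in untreated caps. Its order of reagents thus differed between the cultures.

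Both subgenome copies were measured for 13 of the genes, and the change of the .L copy was set against that of the .S copy in a fit of the 2009 genes with both. In the activin/RA comparison 1 of 13 pairs differed, while 25.6% of all pairs did. This was mapkapk2, a kinase gene whose product is activated by p38. mapkapk2.L read 8.46 with MO1/2, 8.23 with MO3 and 8.44 with control MO in activin/RA caps, against 8.87, 8.82 and 8.51 in untreated caps. mapkapk2.S read 7.66, 7.64 and 7.58 against 7.40, 7.28 and 7.07. The .L copy thus had lower and the .S copy higher values in activin/RA caps, with changes of -0.36 and 0.38 that did not pass alone, and their difference was -0.73 ± 0.12 (SE, limma adjusted p = 0.0158).

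The other 12 pairs had differences between -0.31 for map2k4 and 0.28 for fgfr4, with limma adjusted p of 0.0957 or larger. The copies of spry2 changed by 1.31 and 1.21, and the interval of their difference was -0.19 to 0.38. Those of dusp6 changed by 0.73 and 0.56, with an interval of -0.14 to 0.48. For the ERK3 effect in untreated caps 0 of 13 pairs differed in limma, with 0 at an unadjusted p under 0.05, and 0.299% of all pairs did. Hybridisation of 1 copy's transcript to the other copy's probes was not tested.

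**Figure D5:**
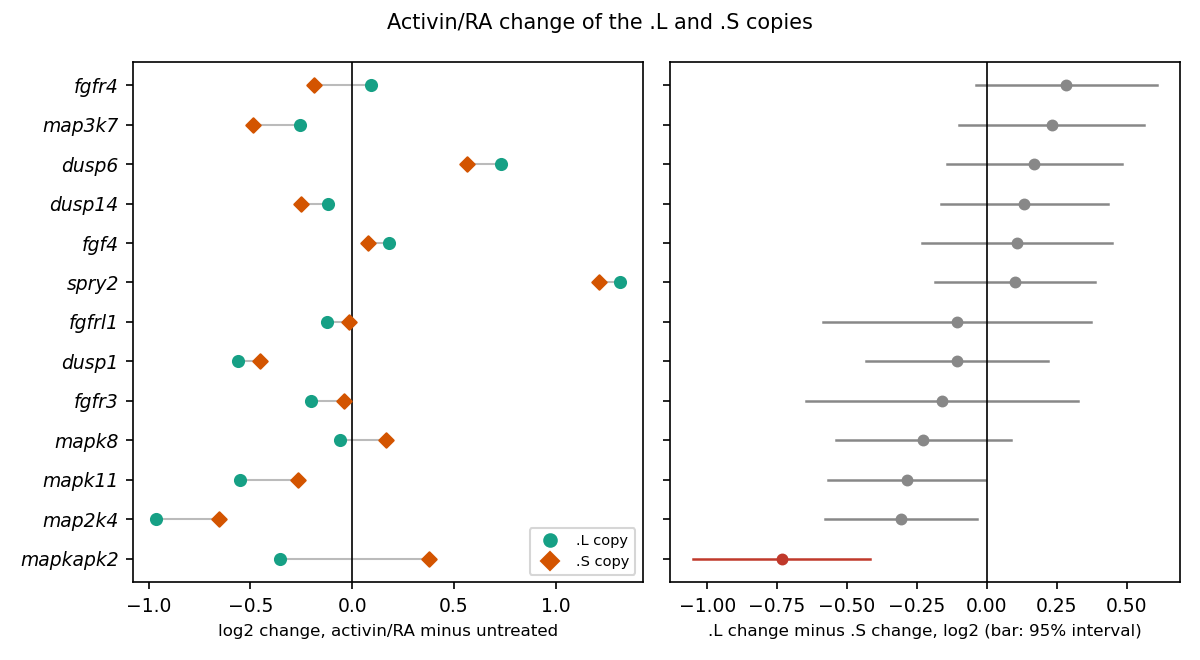
Left, log2 change (activin/RA minus untreated) of the .L copy (green circles) and .S copy (orange diamonds) of the 13 genes measured in both. Right, the .L change minus the .S change with its 95% interval, where mapkapk2 (red, -0.73) is the pair that passed.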

How the data were processed

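The deposited table holds linear RMA intensity values, the lowest 2.13 and the highest 18347. Per the labels' protocols and design text, the authors amplified 250 ng of total RNA, hybridized it to GeneChip Xenopus laevis Genome 2.0 arrays and normalized the probe set signals with RMA in Expression Console. Here log2 was taken with no constant added. The array's 96 control probe sets were dropped from the 32635 deposited, and limma was run on all 32539 others. By the platform's annotation 15495 carry 1 symbol, 279 carry more and 16765 carry no symbol. Through identifiers, 15384 were matched to RefSeq. The 73 genes have 95 probe sets, fgfr1-a had no RefSeq match, and 7 further probe sets that list a pathway gene among several symbols were not used.

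Tests used limma 3.58.1 in R 4.3.3 (lmFit, eBayes with intensity trend) on all 6 arrays. Activin/RA and MO3 against MO1/2 were fitted with culture and morpholino, and the ERK3 effects with culture, knockdown and their interaction. Both fits left 2 residual degrees of freedom. They were also run on simulated data with noise of the same size on every array. That run cannot test whether the single control MO array of a culture varies like the rest. It did not cover the interaction. Errors after ± are standard errors of the fit unless marked SD, and intervals are 95%. The fit draws the spread of each probe set towards that of probe sets with like signal. These standard errors are therefore not those of a gene's own pairs alone.

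The genes, roles and lists were chosen with earlier results of these data known. Named genes are those that passed (up to 12 in each direction), those changed 2-fold by both reagents, the receptors, fgf8, dusp6, spry1, spry2 and mapk15, and copies that differed. Others named were chosen after their values were seen.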

Additional observations from a re-analysis of the deposited data

How the results depend on the processing

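No paired analysis by replicate number was possible because each group holds 1 array. The alternatives were eBayes without the trend, further quantile normalization, log2(value + 16), a filter for signals above the overall median, the median over a symbol's probe sets, no morpholino block, and each array left out. For activin/RA 18 genes passed, 10 without the morpholino block and 8 to 25 with 1 array left out. For the ERK3 effect in untreated caps 5 passed, and 1 to 5 with 1 array left out, where the untreated control MO array cannot be spared. For MO3 against MO1/2 0 passed, and 0 to 2 with 1 array left out. For the ERK3 effect in activin/RA caps and the interaction 0 of the 73 genes passed under any alternative. No named gene's call changed its sign under these alternatives. Of the 5 untreated ERK3 calls 4 remained without the trend and 4 with the filter, which removed dusp19.L before testing. With the filter fgfr4.L (limma adjusted p = 0.048), map2k4.S (0.0404) and spryd7.S (0.0498) passed too. This setting refits limma to fewer probe sets, and the reason for these added calls was not tested. The cause of the changes with single arrays was not tested, and these counts are not set beside those of all symbols. Leaving out an activin/RA array does not alter the estimates of the ERK3 effect in untreated caps. Signal over background limits the 25 genes below the overall median on every array.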
